A study of Homo sapiens with 5 samples.

Results

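The genes described here are those of the translation initiation factors eIF1 to eIF6 and of the elongation factors eEF1 and eEF2, with the inhibitors, kinase and methyltransferases that share their gene symbols. They were chosen by name: every array probe whose platform annotation gave exactly 1 gene symbol starting with EIF1 to EIF6, EEF1 or EEF2, without the 4 EIF2AK kinases and 1 pseudogene. A gene with several probes is represented by the one that was brightest on average across the 5 arrays. This gave 57 genes, from 65 probes, of the 18417 genes measured. Of these 57, 56 code for proteins and 1, EIF3J-DT, is a noncoding transcript that runs away from the start of EIF3J. They were sorted into 12 groups by role. RS4.11 is an established human leukemia line that carries a translocation of the MLL gene. It was grown in culture with 10 uM SB216763, a small molecule that inhibits the kinase GSK-3, or with the solvent DMSO alone, for 20 h. Total RNA was hybridised to 5 Affymetrix whole-transcript arrays, 2 of control cells and 3 of SB216763 cells. All arrays are of this single line at a single dose and time, so nothing here separates SB216763 from other GSK-3 inhibitors or RS4.11 from other cells. The labels do not say that the arrays came from separate cultures, so the p-values rest on array-to-array spread that may be partly technical.

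In eukaryotic cells the small ribosomal subunit, helped by eIF1, eIF1A, eIF3 and the initiator tRNA carried by eIF2, is recruited to the capped end of an mRNA by the eIF4F complex and scans to the start codon. The large subunit then joins with the help of eIF5B, and eEF1A and eEF2 deliver aminoacyl-tRNAs and move the ribosome along. The usual control points are these: eIF2B reloads eIF2 with GTP, and the 4E-BP proteins hold the cap-binding protein eIF4E away from eIF4G until the kinase mTORC1 phosphorylates them. GSK-3 is known to phosphorylate the catalytic epsilon subunit of eIF2B and so to restrain it. That is control of the protein, whereas the arrays measure only the level of the mRNA. Many mRNAs of the translation machinery, ribosomal protein mRNAs above all, begin at the cap with a C and a run of pyrimidines, the terminal oligopyrimidine tract, through which mTORC1 controls their translation.

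Values are log2 expression, so a difference of 1 is a doubling. The arrays were alike: medians lay between 6.77 and 6.84, and the correlation over all probes was 0.994 between the control arrays, 0.992 to 0.996 among SB216763 arrays and 0.989 to 0.991 between groups. The background of an array, set as the 95th percentile of 361 olfactory receptor genes, was 6.0 to 6.23. Of the factor genes, 56 were above it on all 5 arrays and 1, EIF4E, on none. Although RS4.11 is usually described as a B precursor line, only 3 of the 10 B cell precursor markers measured (CD79B, PAX5 and IGLL1) were above background on all arrays, and CD22, VPREB1, DNTT, RAG1, RAG2 and CD24 on none. Their mean level was 5.67 on both control arrays and 5.65 to 5.75 with SB216763; 0 of 10 passed the test below, and 0 had an unadjusted p under 0.05. All 11 myeloid markers measured were above background, and 4 of them rose, CD68, CSF3R, LYZ and TYROBP, while 4 had negative differences that did not pass (MPO -0.23, ELANE -0.05, CEBPA -0.01 and CD14 -0.00). The mean level of the 11 was 8.76 to 8.77 in control and 9.11 to 9.18 with SB216763. Of 10 T and NK cell markers 1, NKG7, rose, by 0.88, and the mean level was 6.21 to 6.24 in control and 6.20 to 6.30 with SB216763. Of 8 erythroid and megakaryocyte markers 0 passed and 0 had an unadjusted p under 0.05, with a mean level of 6.43 to 6.51 and 6.29 to 6.42. The part of these shifts in the differences of the factor genes was not tested. In such bulk RNA, fewer cells of a type and less RNA per cell cannot be told apart.

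SB216763 moved the factor genes in both directions: 10 rose, 9 fell and 38 did not pass. The test was limma's moderated test with Benjamini-Hochberg adjustment over all 18417 genes at 0.05. The genes that rose were EIF4A2, EIF3E, EIF3H, EIF4B, EIF3L, EIF2S3, EIF2A, EEF2, EIF3F and EIF2D. Those that fell were EIF4EBP1, EIF1AX, EEF1AKMT1, EEF2KMT, EIF5B, EIF4E2, EIF4G1, EIF1AD and EIF4A3. The 19 called genes were 33.3% of the factor genes, where 13.1% of all genes tested were called, 7.21% higher and 5.92% lower. Among the 11989 genes above background on all arrays 18.3% were called. The differences were small, from -0.56 to 0.64, and 1 gene, EIF4A2, reached 1.5-fold. Their median size without regard to sign was 0.20, against 0.12 over all genes and 0.15 over the genes above background, while the signed median was -0.01 against 0.00. The control and SB216763 values did not overlap for 37 factor genes (64.9%), 20 of them higher and 17 lower, where 41.4% of all genes did not overlap, 21.6% higher and 19.9% lower. At an unadjusted p under 0.05 there were 27 factor genes (47.4%), against 26.5% of all genes.

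These counts lean on both control arrays. Without control array 1 the calls among all genes fell from 2418 to 1 and without control array 2 to 0, with 0 factor genes called in either case; in both fits the remaining control array was assumed to vary like the SB216763 arrays. All 19 called genes kept their sign there. The median difference of all factor genes was -0.02 without control array 1 and 0.03 without control array 2. Without SB216763 array 1, 5 of the 19 stayed called (EIF4A2, EIF3H, EIF4EBP1, EEF1AKMT1 and EEF2KMT), without array 2 18 did, EIF4A3 being lost, and without array 3 12 did, without EIF3E, EIF2A, EEF2, EIF2D, EEF2KMT, EIF1AD and EIF4A3. When each array was centred on its own median, which shifts the median difference of all genes to -0.05, 8 factor genes rose and 12 fell, and the split over all genes went from 1328 higher and 1090 lower to 1048 higher and 1536 lower.

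**Figure D1:**
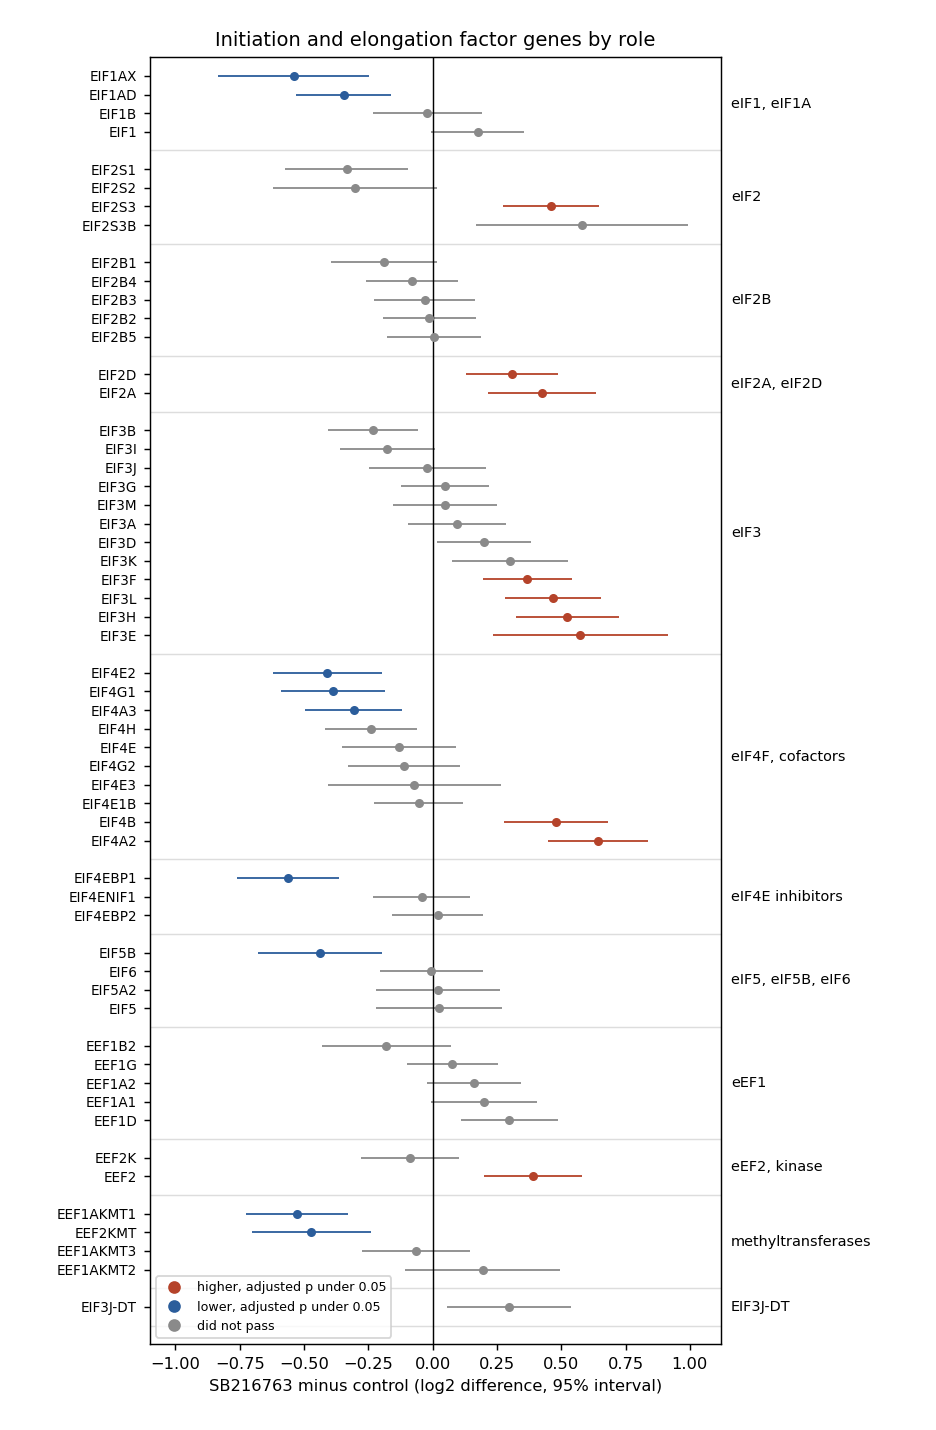
SB216763 minus control (log2 difference, horizontal axis) for 56 factor genes sorted by role, with the 95% interval of the moderated fit as a bar. Red genes were higher and blue genes lower at an adjusted p under 0.05. The genes of eIF2B lie around 0, and eIF2A and eIF2D are both on the right. The group of eIF4F with its homologues and cofactors spreads to both sides, from EIF4E2 at -0.41 to EIF4A2 at 0.64.

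**Figure D2:**
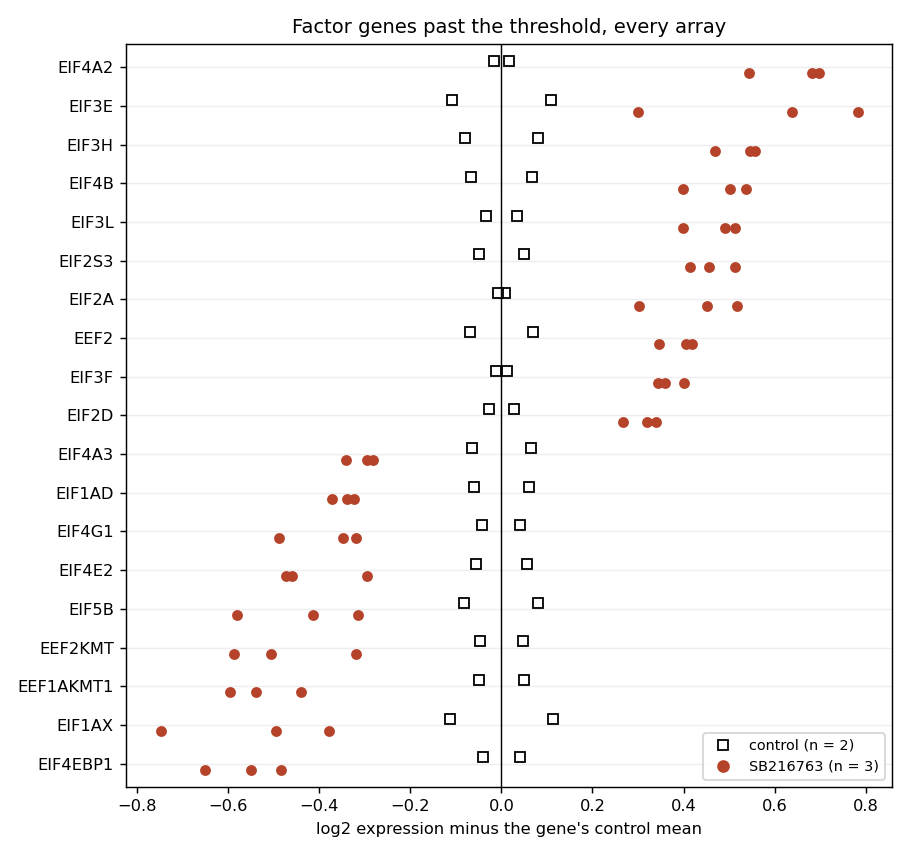
Log2 expression of the 19 called factor genes on every array, minus the mean of the 2 control arrays for that gene. Open squares are the 2 control arrays and filled circles the 3 SB216763 arrays. In each gene all SB216763 values lie to one side of both control values, and EIF3E has the widest spread.

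Among the factor genes with a RefSeq start at hand, those that rose began with a pyrimidine run and those that fell did not. The RefSeq promoter table (GRCh38.p14, 250 bases before and 50 from each start) held a start for 44 of the 56 factor genes whose values are given. The called genes without one are EIF3E, EIF3H, EIF3L, EIF4EBP1, EEF1AKMT1 and EEF2KMT. A start was counted as carrying the pyrimidine run when its first base was C and at least 4 more bases, each C or T, followed on the sense strand. This was looked up after the differences were seen, so the counts are a description. The run stood at a start of 13 of the 44 genes (29.5%), against 6.27% of the 14237 genes tested that have a sequence and 4.07% of all 35116 sequences in the table. Of the 13, 7 rose, 0 fell, and 12 had a positive difference, with a median of 0.37. Of the other 31, 0 rose, 6 fell, and 8 had a positive difference, with a median of -0.07. That count of 8 was 4 after median centring and 12 without control array 2. At an unadjusted p under 0.05 there were 10 higher and 0 lower with the run, and 1 higher and 9 lower without. For genes that are no factor genes these counts were 246 and 93 of 879 with the run. Without it they were 1799 and 1729 of 13313. The 10 include both EIF2S3 and its near copy EIF2S3B, which the array cannot be relied on to tell apart. Among 879 genes with the run that are no factor genes, 16.7% rose and 4.44% fell, with a median of 0.06. Among 13313 such genes without it, 6.72% rose and 6.32% fell, with a median of -0.00. Leaving out the cytosolic ribosomal protein genes left 841 genes with the run, of which 15.6% rose and 4.64% fell.

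The starts are printed as 20 bases before and 20 from the first base of the transcript, 5′ to 3′ on the sense strand, with the pyrimidine run in capitals. The 7 genes that rose and have a run come first, because the run is what these starts share. EIF4B has the shortest run that was counted, 5 bases, and EIF3F one of 10.
EIF4A2 (chr3:186783557-186783596, plus strand): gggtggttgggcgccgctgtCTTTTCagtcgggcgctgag
EIF4B (chr12:53006436-53006475, plus strand): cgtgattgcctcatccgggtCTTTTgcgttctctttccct
EIF2S3 (chrX:24054936-24054975, plus strand): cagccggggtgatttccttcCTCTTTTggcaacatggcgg
EIF2A (chr3:150546767-150546806, plus strand): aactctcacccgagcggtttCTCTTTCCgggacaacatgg
EEF2 (chr19:3985444-3985483, minus strand): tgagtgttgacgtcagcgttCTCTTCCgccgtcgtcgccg
EIF3F (chr11:7987317-7987356, plus strand): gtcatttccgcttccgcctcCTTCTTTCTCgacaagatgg
EIF2D (chr1:206612446-206612485, minus strand): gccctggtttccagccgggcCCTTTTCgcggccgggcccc
The next 3 have the run and did not pass the test: EEF1A1, a textbook mRNA of this kind, EIF2S3B, whose start copies that of EIF2S3, and EEF1B2, the one gene of the 13 with a negative difference. EEF1B2 and EIF2S3B each have another RefSeq start without a run.
EEF1A1 (chr6:73521013-73521052, minus strand): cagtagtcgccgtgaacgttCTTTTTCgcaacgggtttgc
EIF2S3B (chr12:10505870-10505909, plus strand): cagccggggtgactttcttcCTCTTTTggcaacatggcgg
EEF1B2 (chr2:206159875-206159914, plus strand): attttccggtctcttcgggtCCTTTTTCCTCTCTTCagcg
Of the 6 genes that fell and have a sequence, the 4 with a single start are shown for contrast, with only the first transcribed base in capitals. All 4 begin with A or G. The other two that fell have several starts, none with a counted run: a start of EIF4E2 begins with C and one of EIF4G1 with T, and their other starts with A or G.
EIF1AX (chrX:20141819-20141858, minus strand): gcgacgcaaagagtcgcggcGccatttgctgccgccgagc
EIF5B (chr2:99337369-99337408, plus strand): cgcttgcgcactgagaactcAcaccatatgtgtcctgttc
EIF1AD (chr11:66002138-66002177, minus strand): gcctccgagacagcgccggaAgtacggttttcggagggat
EIF4A3 (chr17:80147109-80147148, minus strand): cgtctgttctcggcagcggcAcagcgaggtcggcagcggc

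**Figure D3:**
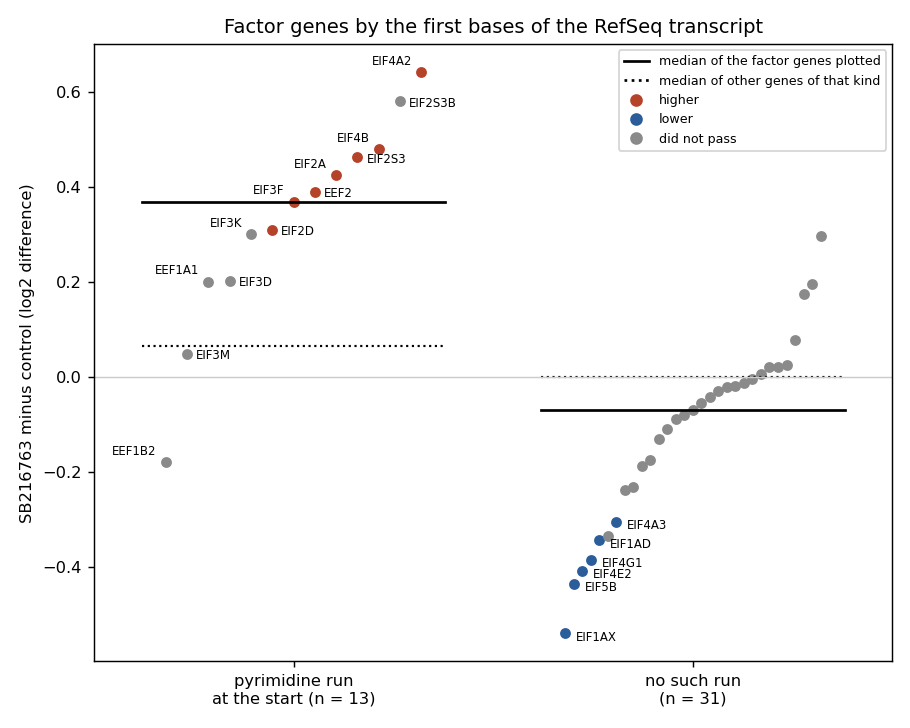
SB216763 minus control (log2 difference, vertical axis) of the 44 factor genes with a promoter sequence, split by whether a RefSeq start carries the pyrimidine run (13 genes) or not (31 genes) and ordered by value. Solid lines are the medians of the factor genes, 0.37 and -0.07, and dotted lines those of all other genes of that kind, 0.06 and -0.00. All red genes, which rose, lie on the left and all blue genes, which fell, on the right.

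The motif CACGTG, the E-box that the factor MYC is known to bind, is its own reverse complement, so one search covers both strands. It occurred in the 300-base window of 11 of the 44 factor genes (25%), of 10.9% of the genes tested and in 7.26% of all sequences. Of the 11 factor genes with it 2 rose and 2 fell, and of the 33 without it 5 rose and 4 fell. Among other genes with it 8.34% rose and 8.34% fell, and among those without it 7.21% rose and 5.95% fell. MYC itself fell by 1.05 on the log2 scale (SE 0.08, adjusted p = 0.000588).

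Among the factors that open the small subunit for scanning, the genes of eIF1A and of an eIF1A-like protein fell and those of eIF1 did not pass. This group has 5 genes, of which 2 fell and 0 rose, with 2 lower and 0 higher at an unadjusted p under 0.05. EIF1AY, carried on the Y chromosome, is in these counts without its level. EIF1AX, which codes for eIF1A, was at 11.22 and 11.45 on the control arrays and at 10.84, 10.59 and 10.96 with SB216763. The groups did not overlap, and the difference was -0.54 (SE 0.13, adjusted p = 0.0301, probe 7912852). Its other probe gave a difference of -0.43. EIF1AD, a nuclear protein that shares the eIF1A-like domain, was at 8.58 and 8.70 in control and 8.30, 8.31 and 8.26 with SB216763. All 3 treated values were lower, by 0.35 on average (difference -0.35, SE 0.08, adjusted p = 0.0288). EIF1, which guards the choice of start codon, lay at 12.73 and 12.78 in control and at 12.93, 12.89 and 12.98 with SB216763. Its groups did not overlap but it did not pass (difference 0.17, SE 0.08, adjusted p = 0.201), and its paralog EIF1B had a difference of -0.02.

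The subunits of eIF2, which carries the initiator tRNA, did not move as one. EIF2S3, the gamma subunit that binds GTP and the tRNA, was at 12.13 and 12.23 in control and 12.64, 12.59 and 12.69 with SB216763. It rose by 0.46 with no overlap (SE 0.08, adjusted p = 0.0103). EIF2S1, the alpha subunit whose phosphorylation shuts initiation down under stress, had 10.56 and 10.75 in control and 10.31, 10.20 and 10.44 with SB216763. Its values did not overlap either, in the opposite direction, but the difference of -0.33 did not pass (SE 0.10, adjusted p = 0.0746). The beta subunit, EIF2S2, had a difference of -0.30 with overlapping arrays (SE 0.14, adjusted p = 0.212). EIF2S3B, an intronless near copy of EIF2S3, had the largest difference of the 4, 0.58, and the widest spread: 7.16 on both control arrays and 7.64, 7.46 and 8.12 with SB216763 (SE 0.18, adjusted p = 0.0739). Since the copies are nearly identical, the array cannot be relied on to tell their transcripts apart.

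The genes of eIF2B, the exchange factor through which GSK-3 is known to act on translation, included no called gene: 0 of 5 passed, and 0 had an unadjusted p under 0.05. Their median difference was -0.03. EIF2B5, the catalytic epsilon subunit that GSK-3 phosphorylates, was at 8.96 and 9.01 in control and at 9.02, 8.92 and 9.01 with SB216763. The groups overlapped, and the 95% interval of the difference ran from -0.18 to 0.19 (difference 0.00, adjusted p = 0.981). EIF2B1, the alpha subunit, had the lowest difference of the 5, -0.19, with an interval from -0.39 to 0.02 (adjusted p = 0.23). The differences of EIF2B4, EIF2B3 and EIF2B2 were -0.08, -0.03 and -0.01, and their intervals together ran from -0.26 to 0.17.

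Both factor genes grouped as able to bring an initiator or other tRNA to the ribosome without eIF2 rose. Genes outside the factor symbols are not in this group. Among those, DENR and MCTS1 had differences of 0.08 and 0.17 and did not pass (adjusted p = 0.706 and 0.221). EIF2A, which despite its name is no subunit of eIF2, was at 9.73 and 9.72 in control and at 10.18, 10.03 and 10.24 with SB216763. The lowest treated value was clear of both controls, and the difference was 0.42 (SE 0.09, adjusted p = 0.0215). EIF2D, also known for ribosome recycling, was at 9.05 and 8.99 in control and at 9.36, 9.29 and 9.34 with SB216763. It rose by 0.31 (SE 0.08, adjusted p = 0.0372), and median centring was among the settings that ended its call.

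The large scaffold eIF3, which binds the small subunit and links it to eIF4G, is the largest group and had the most genes that rose. Of its 12 subunit genes 4 rose (33.3%) and 0 fell. Among all genes 7.21% rose, and 9.75% among the genes above background. At an unadjusted p under 0.05 there were 6 higher and 1 lower, and the median difference was 0.15. EIF3H was at 11.55 and 11.71 in control and at 12.17, 12.10 and 12.19 with SB216763. The treated arrays were all higher, by 0.52 on average (SE 0.09, adjusted p = 0.00818). EIF3L was at 12.00 and 12.07 in control and at 12.55, 12.43 and 12.53 with SB216763 (difference 0.47, SE 0.08, adjusted p = 0.00983). EIF3F, with one of the longer runs printed, was at 11.20 and 11.17 in control and at 11.59, 11.55 and 11.53 with SB216763. Its arrays were the tightest of the 4, with a difference of 0.37 (SE 0.07, adjusted p = 0.0181). Its other probe gave 0.28. EIF3E had the largest and least even difference: 10.55 and 10.76 in control against 11.29, 10.96 and 11.44 with SB216763 (difference 0.57, SE 0.15, adjusted p = 0.0408). SB216763 array 2 lay closest to the controls, and median centring was among the settings that ended its call.

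The other eIF3 genes spread down to slightly negative values. EIF3K, at 11.27 and 11.48 in control and 11.63, 11.77 and 11.63 with SB216763, had a difference of 0.30 and did not pass (SE 0.10, adjusted p = 0.0888). EIF3D, the subunit known to bind the cap of some mRNAs, had a difference of 0.20 (SE 0.08, adjusted p = 0.149). EIF3A, the largest scaffold subunit, had 0.10, EIF3M and EIF3G each had 0.05, and EIF3J, which binds loosely, had -0.02. EIF3I and EIF3B, which sit together at the entry of the mRNA channel, were below the controls on all 3 treated arrays without passing. EIF3B was at 11.07 and 11.09 in control and at 10.88, 10.86 and 10.81 with SB216763 (difference -0.23, SE 0.08, adjusted p = 0.0873), and EIF3I had a difference of -0.18 (adjusted p = 0.208). Sorted after the values were seen, the 7 genes in the table that code for PCI or MPN domain subunits of the octamer core (subunits a, e, f, h, k, l and m) held all 4 that rose, and all 7 had a positive difference, with a median of 0.37. Subunit c, of the same core, had only probes shared by EIF3C and EIF3CL, which gave 0.07 and did not pass (adjusted p = 0.693 over all probes). The 3 genes of the b, g and i module held 0 called and 1 positive, with a median of -0.18.

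**Figure D4:**
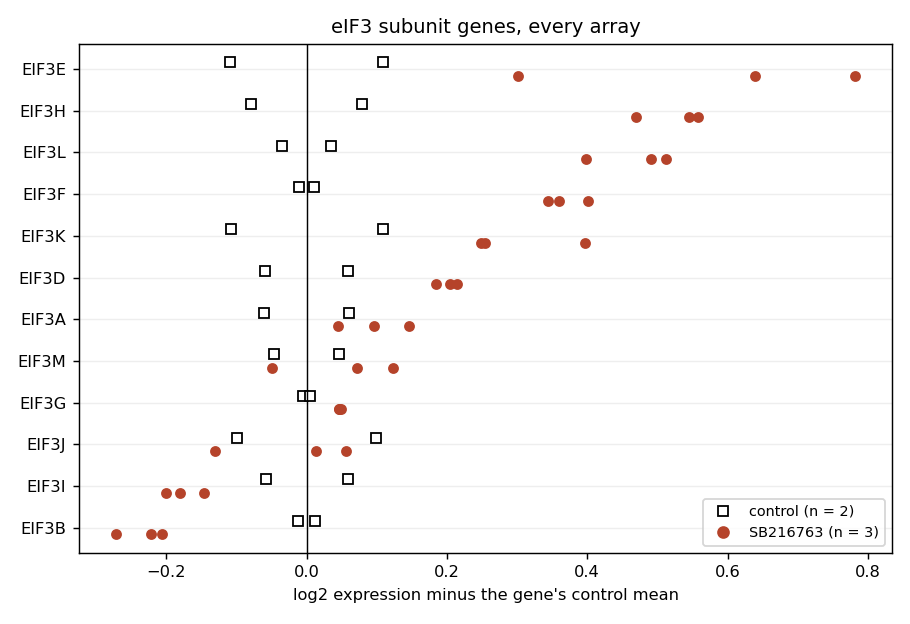
Log2 expression of the 12 eIF3 subunit genes on every array, minus the mean of the 2 control arrays for that gene, ordered by the mean difference. Open squares are control and filled circles SB216763. EIF3E, EIF3H, EIF3L and EIF3F lie furthest to the right by mean difference. All SB216763 values of EIF3K, EIF3D and EIF3G also lie above both controls, and those of EIF3I and EIF3B below both.

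The eIF4F complex, which binds the cap and unwinds the mRNA, was grouped with its homologues and helicase cofactors. This group went both ways, with 2 of 10 genes higher and 3 lower, and not all 10 code for eIF4F subunits. The 2 genes that rose were EIF4A2 and EIF4B. EIF4A2, one of the eIF4A helicases, was at 11.11 and 11.08 in control and at 11.79, 11.64 and 11.78 with SB216763. This was the largest rise of all factor genes, 0.64 or 1.56-fold (SE 0.08, adjusted p = 0.00351, probe 8084694). A dimmer probe that also names EIF4A2 alone gave -0.05, from about 8.10 in control, and the mean of both probes, 0.29, did not pass (adjusted p = 0.071). A probe shared with the small RNA gene SNORA4 gave -0.04. EIF4B, which stimulates the helicase, was at 11.83 and 11.97 in control and at 12.40, 12.30 and 12.44 with SB216763. It rose by 0.48 (SE 0.09, adjusted p = 0.0118), and its other probes gave 0.53 and 0.67. EIF4H, the other helper of the helicase, had a difference of -0.24 with no overlap and did not pass (SE 0.08, adjusted p = 0.0873).

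The scaffold and a cap-binding homologue fell. EIF4G1, the scaffold that joins cap, helicase and eIF3, was at 10.76 and 10.84 in control and at 10.45, 10.31 and 10.48 with SB216763. All treated arrays were lower, with a difference of -0.39 (SE 0.09, adjusted p = 0.0266). EIF4E2, a cap-binding homologue known for repressing translation, was at 9.29 and 9.40 in control and at 8.89, 8.88 and 9.06 with SB216763 (difference -0.41, SE 0.09, adjusted p = 0.025). EIF4A3, a helicase of the exon junction complex rather than of eIF4F, was at 10.65 and 10.78 in control and at 10.43, 10.42 and 10.37 with SB216763. Its difference of -0.31 was the smallest of the called genes that fell (SE 0.08, adjusted p = 0.0458). Its call ended with quantile normalization, without moderation of the variances and with the replicate number as a block (adjusted p = 0.0525 to 0.153). The call also ended with any 1 of the 3 SB216763 arrays left out (adjusted p = 0.0541 to 0.145). Without control array 1 the difference was -0.37, and without control array 2 it was -0.24. EIF4E, the cap-binding protein itself, was not above background on any array (5.86 to 6.15), so its difference of -0.13 says little about the mRNA. EIF4G2, EIF4E3 and EIF4E1B had differences of -0.11, -0.07 and -0.06 and did not pass. Probes for EIF4A1 also name other genes and stood outside the rule. The one with SENP3-EIF4A1 gave -0.20 (SE 0.08) and the one with SNORA48 gave 0.33 (SE 0.08). Neither passed when every probe was tested (adjusted p = 0.195 and 0.0761 over all probes). Of the called genes, EIF3E, EIF2A, EEF2, EIF2D, EIF1AX, EEF2KMT, EIF5B, EIF4E2, EIF4G1, EIF1AD and EIF4A3 did not pass there either. The probes that stood for them had adjusted p = 0.055 to 0.106 over all probes.

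Of the 3 factor genes with a probe of their own whose products hold eIF4E back, 1 fell and 0 rose. EIF4EBP1 codes for the mTORC1 target 4E-BP1. It was at 9.84 and 9.93 in control and at 9.40, 9.23 and 9.33 with SB216763. This was the largest fall of all factor genes, -0.56, or 1.48-fold lower (SE 0.09, adjusted p = 0.00628, probe 8145889). Its paralog EIF4EBP2 was at 11.15 and 11.23 in control and at 11.23, 11.19 and 11.21 with SB216763. The arrays overlapped, and the interval of the difference ran from -0.16 to 0.20 (difference 0.02, adjusted p = 0.913). EIF4ENIF1, which carries eIF4E into the nucleus and to repressed mRNAs, had a difference of -0.04. EIF4EBP3 had only a probe shared with ANKHD1 and ANKHD1-EIF4EBP3. That probe gave 0.31 and did not pass (adjusted p = 0.0743 over all probes), and cannot say which of these genes it measured.

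In the group of subunit joining, eIF5A and eIF6, 1 of 4 genes fell and 0 rose. The same counts held at an unadjusted p under 0.05. Among all genes tested 5.92% fell, and 26.5% had an unadjusted p under 0.05 in either direction. EIF5B, the GTPase that joins the subunits, was at 10.94 and 11.11 in control and at 10.61, 10.44 and 10.71 with SB216763. All 3 treated values were below both controls (difference -0.44, SE 0.10, adjusted p = 0.032). EIF5, which triggers GTP hydrolysis by eIF2, had a difference of 0.02, as did EIF5A2, and EIF6, which keeps the large subunit free, had -0.00 with an interval from -0.20 to 0.19. The common isoform EIF5A had no probe of its own. Its 3 probes, all shared with EIF5AL1, gave -0.48, -0.47 and -0.48, with adjusted p = 0.0471, 0.0559 and 0.0472 over the 33297 probes, and cannot say which of both genes they measured.

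Among the elongation factors EEF2 rose and the eEF1 genes did not pass. EEF2, the translocase, was at 13.15 and 13.29 in control and at 13.64, 13.57 and 13.63 with SB216763. The difference was 0.39 with no overlap (SE 0.08, adjusted p = 0.0211). EEF2K, the kinase that switches eEF2 off, was at 8.93 and 9.01 in control and at 8.88, 8.82 and 8.95 with SB216763 (difference -0.09, SE 0.08, adjusted p = 0.573). Of the 5 eEF1 genes 0 were called and 1 had an unadjusted p under 0.05. On all treated arrays 4 lay above both controls, as 21.6% of all genes did. The median over the 5 was 0.16, and 0.076 with quantile normalization. EEF1D, part of the exchange factor of eEF1A, came closest: 11.87 and 12.00 in control and 12.20, 12.27 and 12.23 with SB216763 (difference 0.30, SE 0.08, adjusted p = 0.0521). Its dimmer second probe gave 0.01, and the mean of both was 0.15 (adjusted p = 0.304). EEF1A1, which delivers aminoacyl-tRNA, was at 13.85 and 14.04 in control and at 14.17, 14.09 and 14.18 with SB216763. The lowest treated value was barely above the higher control (difference 0.20, SE 0.09, adjusted p = 0.2). With quantile normalization the difference of EEF1A1 was 0.026. EEF1A2 and EEF1G had differences of 0.16 and 0.08, and EEF1B2, with the longest run printed, had -0.18 (SE 0.11, adjusted p = 0.35).

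The enzymes that methylate the elongation factors were lower or did not pass: 2 of 4 fell, 0 rose, and there were 2 lower and 0 higher at an unadjusted p under 0.05. EEF1AKMT1, a lysine methyltransferase of eEF1A, was at 9.44 and 9.34 in control and at 8.95, 8.79 and 8.85 with SB216763. The difference was -0.53 (SE 0.09, adjusted p = 0.00809). EEF2KMT, which methylates a lysine of eEF2, was at 8.74 and 8.84 in control and at 8.47, 8.20 and 8.28 with SB216763. It fell while the gene of its substrate rose, with a difference of -0.47 (SE 0.10, adjusted p = 0.0215). EEF1AKMT2, at 0.20 (SE 0.13), and EEF1AKMT3, at -0.07 (SE 0.09), overlapped between groups. The noncoding EIF3J-DT had a difference of 0.30 and did not pass (SE 0.10, adjusted p = 0.112), beside -0.02 for EIF3J.

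A list of 41 other genes gave 3 higher, 5 lower and 33 that did not pass, or 19.5% called. It holds genes of the translation pathway and 3 transcription factors, MYC, ATF4 and DDIT3. MYC, whose fall is given above, is among the 5 lower. All but 1 of the 41 genes were above background, and 18.3% of all such genes were called, so the share is near the background. The poly(A)-binding proteins, which bridge the mRNA tail to eIF4G, rose: PABPC4 by 0.61 (SE 0.08, adjusted p = 0.00412) and PABPC1 by 0.36 (SE 0.09, adjusted p = 0.0474). PAIP2, which displaces them from mRNA, fell by 0.68 (SE 0.10, adjusted p = 0.00552). PDCD4, which blocks the eIF4A helicase, was at 10.34 and 10.48 in control and at 9.39, 9.13 and 9.50 with SB216763. Its difference of -1.08 was larger than that of any factor gene (SE 0.12, adjusted p = 0.00209). RPS6KB1, the S6 kinase that phosphorylates eIF4B and marks PDCD4 for destruction, had a difference of -0.38 (adjusted p = 0.0412), and DDX3X, a helicase used on structured leaders, had -0.39 (adjusted p = 0.0227). MKNK1, a kinase of eIF4E, rose by 0.40 (adjusted p = 0.0213). Of the 8 genes of eIF2 kinases and the eIF2 phosphatase 0 passed, with 2 higher and 0 lower at an unadjusted p under 0.05, and ATF4, the gene translated when eIF2 is phosphorylated, had a difference of -0.06 (SE 0.08, adjusted p = 0.729). Of the 8 genes of termination, recycling and rescue 0 passed, with 2 lower at an unadjusted p under 0.05, and of the 2 enzymes that make the hypusine of eIF5A 0 passed, with 1 lower.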

How the data were processed

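The authors deposited a single table with log2 values of the 5 arrays; the scale was judged from the range, 1.95 to 14.84. The submitters' processing notes name Affymetrix Expression Console. For its version, the summarisation and the build, the answer is: not given in the sources used here. No further normalization was applied. Of 33297 probes, 19460 had 1 gene symbol in the platform annotation, 1754 several and 12083 none, and 19429 matched a RefSeq gene (GRCh38.p14) by Entrez identifier, with 0 symbols changed. For the 769 genes with several probes the brightest stood for the gene, so a probe with several symbols stayed out. EIF1AY is counted without its level.

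SB216763 was compared with control in R 4.3.3 with limma 3.58.1 (a two-sided moderated test, 7.62 degrees of freedom), with Benjamini-Hochberg adjustment over 18417 genes and a threshold of 0.05, and 95% intervals from the same fit. The code was tested on simulated data. Groups came from the sample titles; at most 2.33% of the probes had the same value on both arrays of a pair. Control 1 and 2 share numbers with SB216763 1 and 2, but the labels tie no pair. Alternatives were another normalization, other variance settings, array weights, a filter on dim genes, the mean of a gene's probes, single probes, the number as a block, and each array left out. Named are all called genes without overlap, the highest and lowest of each group, and a fixed set (eIF2B, EIF2S1, EIF4E, EIF4G1, EIF4A1, EIF4EBP1, EIF4EBP2, EIF5A, EIF6, EEF1A1, EEF2, EEF2K, MYC, PDCD4, ATF4, and the called genes of the related list). Other genes are named to complete a group. The genes and lists were chosen with earlier results of these data known.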

Additional observations from a re-analysis of the deposited data

How the results depend on the processing

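All 19 called factor genes kept their sign in 13 alternatives. The variance trend with robust settings, the filter on dim genes (12510 genes tested) and array weights kept all 19 calls, quantile normalization lost EIF4A3, centring each array on its median lost EIF2D and EIF3E, and the mean of a gene's probes lost EIF4A2. Tested singly, the other probes of EIF4A2 gave -0.053 and -0.040. With adjustment over all 33297 probes, the probes of EIF4A2, EIF3H, EIF4B, EIF3L, EIF2S3, EIF3F, EIF4EBP1 and EEF1AKMT1 that stood for the gene still passed. Those of the other called genes did not. Without moderation of the variances 251 genes were called, 1 factor gene (EIF3F) higher and 0 lower. With array weights 4720 genes were called, with 15 factor genes higher and 14 lower among them. With the replicate number as a block 5 factor genes were higher and 8 lower, 12 of the 19 among them; the numbers pair only 2 arrays of each group, whose deviations correlated at -0.05 and -0.10. Leaving out 1 array gave 0 to 2859 genes called, 0 to 11 factor genes higher and 0 to 8 lower: without SB216763 array 1 it was 2 higher and 3 lower (993 genes), and without array 3, 6 and 7 (1606 genes). The median of all factor genes was -0.065 after centring. Group medians moved with the same settings: eEF1 to 0.076 with quantile normalization, 0.11 centred and 0.11 to 0.18 with 1 array left out; eEF2 and its kinase to 0.086 with quantile normalization; eIF2B to -0.083 centred and -0.084 to 0.017; eIF3 to 0.096 centred and 0.092 to 0.21; the eIF4E inhibitors to 0.021 with array weights; eIF4F to -0.17 centred, -0.19 with array weights and -0.18 to -0.12; and the small-subunit factors -0.26 to -0.11. In alternatives chosen after seeing the data, the genes with the pyrimidine run had a median of 0.31 with quantile normalization and 0.31 with the mean of probes, and those without it -0.12 centred; 12 of 13 with the run stayed positive in each alternative but centring, which gave 11, while 4 to 12 of the 31 without it were positive. The cause of these shifts was not tested, except that fewer arrays leave fewer degrees of freedom. The 5 arrays limit the precision.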
